A study of Mus musculus with 8 samples.

Results

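Livers of mice that stayed on a Western diet and had developed liver cancer (hepatocellular carcinoma, HCC) were compared with livers of mice returned to standard chow in which no tumour was detected. The comparison took 6 of the 8 libraries of the series, chosen by the sample descriptions alone, and 49070 of its 79446 barcodes (droplet tags, each taken as 1 nucleus). All 8 mice were male DIAMOND mice, a cross labelled 129A1/SvIm and C57BL/6J, whose liver was snap-frozen and whose nuclear RNA was read with 10x Genomics Chromium 3′ v3.1 chemistry, 1 library per mouse. The WD tumour group (n = 3 mice) received high-fat food and water with fructose and glucose for 48 weeks. The RD no tumour group (n = 3 mice) received the same Western diet for 36 weeks and then standard chow, so these controls had also been fed the Western diet. The RD tumour group (n = 2 mice; the same reversal, with HCC) is given only as values beside some results. No lean control was analysed here. Diet and tumour differed together between the groups, so their parts in any difference cannot be told apart. The labels do not say whether the sampled piece of a liver held tumour tissue. By the labels the mice were 48 weeks old when sampled, but by the design text feeding began at 2 months and ran for 48 weeks on the Western diet. These statements disagree, and age was not used.

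As background, hepatocytes build and store fat, export it as lipoproteins, make bile acids and carry a sex-dependent programme of steroid and drug metabolism set by growth hormone. In a fatty, inflamed liver, stellate cells lay down collagen, resident Kupffer cells are partly replaced by macrophages derived from monocytes that carry lipid-handling genes, and small bile ducts multiply at the edge of the lobules. Sterol regulatory element binding proteins (SREBPs) switch on fatty acid genes under insulin and sterol genes when cholesterol is short.

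Each library's unique molecular identifiers (UMIs, 1 per captured RNA molecule) were summed over barcodes with at least 300 detected genes, and again over the barcodes of 6 cell classes. A barcode belonged to the endothelial, stellate, cholangiocyte (bile duct), macrophage or T/NK class with at least 3 UMIs of that class's markers. The hepatocyte class held barcodes with at least 3 hepatocyte marker UMIs and fewer than 3 of every other class, since hepatocyte RNA was found throughout. Of the barcodes outside the other classes, 1 in WD tumour 1 and 0 in the other libraries missed the hepatocyte marker minimum. The hepatocyte class was therefore the remainder, and can hold nuclei of cell types that have no class here. In what follows, hepatocytes means this class. Levels are counts per 1000000 summed UMIs (CPM, on TMM-scaled library sizes), and log2 differences are WD tumour minus RD no tumour. In these sums, fewer cells of a type and less RNA per cell cannot be told apart. Depth ranged from 17948627 to 32208799 UMIs and from 6048 to 10351 barcodes per library, with 8 to 32 barcodes shared between any pair of the 6 libraries. In the hepatocyte class, the median UMIs per barcode were 1024, 970 and 1021 in WD tumour 1, 2 and 3. They were 1975, 4143 and 2470 in RD no tumour 1, 2 and 3, so the groups did not overlap. The part of this gap in the hepatocyte differences below was not tested. The median share of mitochondrial UMIs per barcode was 7.91, 2.77 and 7.51% in WD tumour 1, 2 and 3, against 1.30, 3.28 and 1.46% in RD no tumour 1, 2 and 3, and its part in the differences below was not tested beyond refits on barcodes of at most 5%.

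WD tumour 2 and RD no tumour 1 stood apart from the other libraries of their groups. Across 17840 genes (which are not replicates), the log2 levels of these libraries correlated most with each other (r = 0.971), whereas RD no tumour 1 and 2 had r = 0.942 and WD tumour 2 and 1 had r = 0.925. Both had a high share of macrophage-marked barcodes (24.0 and 25.5%, against 6.18 to 12.1% in the other 4). RD no tumour 1 had 909 CPM of neutrophil markers, against 31.9 to 216 CPM in the other 5 libraries, and WD tumour 2 had 30302 CPM of erythroid markers, against 1191 to 7628 CPM. Differences are therefore also given between this pair alone and between the means of the other 4 libraries, as log2 ratios after adding 0.5 CPM.

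The defining markers fitted the liver: hepatocyte marker RNA summed to between 28074 and 38427 CPM in the 6 libraries, and pancreatic acinar marker RNA to at most 10.0 CPM. Hepatocyte marker RNA was also present in every other class, at between 20737 and 40584 CPM, so outside the lists only genes of at least 2 times their hepatocyte level were named there. Between 6.38 and 18.1% of barcodes reached more than 1 class other than hepatocyte, and no doublet caller was run.

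No gene passed an adjusted p of 0.05 in edgeR's quasi-likelihood test in the whole library or in any of the 6 classes (0.0% of the genes tested in each). At an unadjusted p under 0.05 the same test held 968 of 17840 genes in the whole library (5.43%), 1215 of 15945 in hepatocytes (7.62%), 641 of 15228 in the endothelial class (4.21%), 668 of 13929 in the stellate class (4.8%), 421 of 14676 in the cholangiocyte class (2.87%), 491 of 14178 in the macrophage class (3.46%) and 490 of 12049 in the T/NK class (4.07%). DESeq2, run as the alternative, called 141 genes in the whole library (0.716% of those given an adjusted p), 178 in hepatocytes (1.07%), 24 in the endothelial class (0.122%), 32 in the stellate class (0.204%), 12 in the cholangiocyte class (0.0645%), 25 in the macrophage class (0.165%) and 15 in the T/NK class (0.171%). The differences below therefore missed the threshold of the main test, and an adjusted p from DESeq2 is named as such. "Separate" means that all 3 libraries of a group lay above all 3 of the other. An SE beside a log2 difference is the size of edgeR's difference divided by the square root of its F statistic.

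In hepatocytes, the leading genes included Gadd45g and Nnmt at lower levels and Lpl and Acer2 at higher levels in the WD tumour livers. Gadd45g, a stress sensor that restrains cell division, was at 75.9, 81.0 and 62.8 CPM in the WD tumour livers and at 183, 232 and 213 CPM in the RD no tumour livers. The groups did not overlap, and the means were 73.2 ± 9.40 and 210 ± 24.6 CPM (SD). The log2 difference was -1.52 (SE 0.18), with an adjusted p of 0.347 by edgeR and 3.3e-08 by DESeq2. Nnmt, nicotinamide N-methyltransferase, which uses up methyl groups, was at 107, 112 and 120 CPM against 376, 483 and 242 CPM, a log2 difference of -1.70 (SE 0.28; adjusted p = 5.5e-05 by DESeq2). Both held in each subset of libraries: Gadd45g differed by -1.17 within the pair that stood apart and by -1.68 among the other 4, and Nnmt by -1.74 and -1.68. In the build mm10 (GRCm38), Gadd45g lies at chr13:51846678-51848468 on the plus strand and Nnmt at chr9:48591877-48605153 on the minus strand. In the 2 RD tumour livers, Gadd45g stood at 145 and 161 CPM and Nnmt at 257 and 470 CPM.

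Lpl, lipoprotein lipase, which frees fatty acids from circulating triglyceride and is scarce in the adult hepatocyte, was at 25.0, 78.6 and 40.1 CPM in hepatocytes of the WD tumour livers against 6.80, 4.30 and 6.31 CPM (log2 difference 3.04, SE 0.46; adjusted p = 2.4e-07 by DESeq2). Macrophage marker RNA in the hepatocyte sums ran from 91.3 to 335 CPM in WD tumour and from 54.5 to 207 CPM in RD no tumour, and its part in the Lpl difference was not tested. Acer2, an alkaline ceramidase of the Golgi, was at 30.5, 36.3 and 27.9 CPM against 11.7, 11.4 and 11.4 CPM, a log2 difference of 1.46 (SE 0.17). Of the other 8 leading genes at higher levels, Pcdh17, a protocadherin, differed by 2.51, Mapt, the microtubule protein tau, by 1.82, and Lars2, the mitochondrial leucyl-tRNA synthetase, by 1.17 on the log2 scale, with Nkain2, Tmem45b, Ldb2, Rnf186 and Unc5b between 1.87 and 2.36. Of the other 8 at lower levels, Ugdh, which makes UDP-glucuronic acid for conjugation, differed by -1.09 and Hdc, which makes histamine, by -1.45, and AA986860, Mastl, Pcdh11x, Grm8, Tiam2 and Zfp746 by -0.82 to -2.84. Of these 20 genes, all had separate groups, which the choice of genes required, and all passed 0.05 by DESeq2. In barcodes of at most 5% mitochondrial UMIs the difference was smaller for Lars2 (0.54), Pcdh17 (1.54) and Ldb2 (1.39), by over 1.5 times each. Nkain2 averaged 2.52 times its hepatocyte level in the endothelial class, and Unc5b 3.39 times in the stellate class. Both were also at higher levels in WD tumour there. Pcdh17 is also a named gene of the T/NK class. The part of RNA from other cell types in these hepatocyte differences was not tested.

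**Figure D1:**
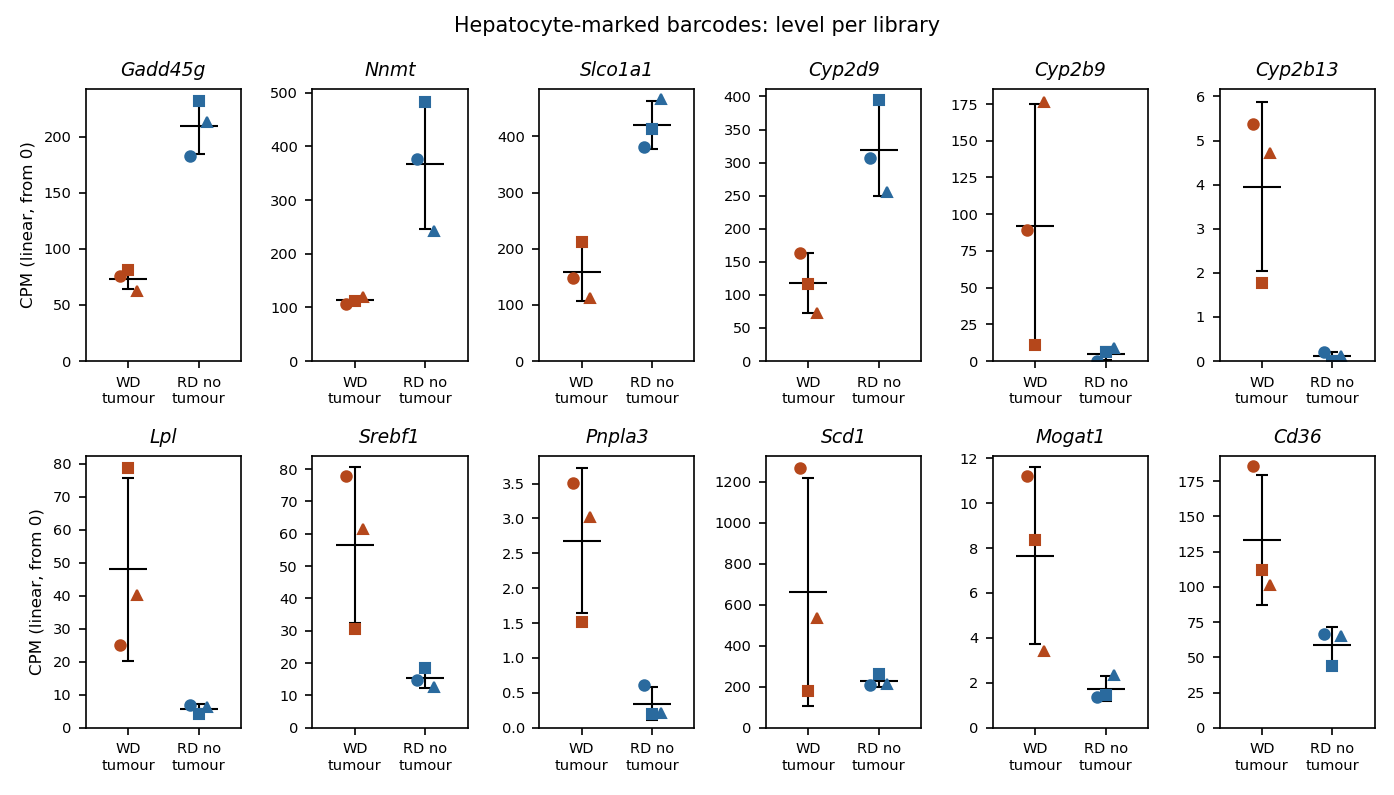
Levels of 12 genes in hepatocyte-marked barcodes (CPM, linear axes from 0), with 1 point per library (circle, square and triangle for libraries 1, 2 and 3), the mean as a long bar and 1 SD as whiskers, cut at 0. Gadd45g sits at 62.8 to 81.0 CPM in WD tumour and at 183 to 232 CPM in RD no tumour, whereas the Scd1 points of WD tumour spread from 178 to 1269 CPM.

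Male-biased hepatocyte genes were mostly lower in the WD tumour livers, although all 8 mice were male. The female-biased genes that passed the low-count filter were higher, a direction that is a description only, as explained below. Of 15 male-biased genes, 13 were tested, 11 lay below 0, and the median log2 difference was -1.41, against -0.008 over all genes tested. The groups were separate for 3 of them, all at lower levels in WD tumour (6.55% of all genes tested were separate in that direction), and DESeq2 called 2 (1.07% of all genes). Slco1a1, an organic anion importer of the male liver, was at 148, 212 and 112 CPM against 381, 413 and 466 CPM (log2 difference -1.41, SE 0.28; adjusted p = 0.0011 by DESeq2), which was -0.84 within the pair that stood apart and -1.75 among the other 4 libraries. Cyp2d9, a male steroid hydroxylase, was at 163, 117 and 72.8 CPM against 306, 395 and 256 CPM (-1.44, SE 0.34; adjusted p = 0.014 by DESeq2). Serpina1e, a member of the alpha-1 antitrypsin cluster, was at 24.4, 740 and 27.4 CPM against 923, 1530 and 830 CPM, so that WD tumour 2 lay near the controls and the other 2 far below. Mup3, a major urinary protein, was at 1227, 502 and 624 CPM against 448, 3874 and 2568 CPM and overlapped through RD no tumour 1.

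Mup7 and Mup1, urinary proteins outside the list and named after their values were seen, split the control group. Mup7 stood at 1.65, 0.380 and 1.25 CPM in WD tumour and at 1.65, 174 and 260 CPM in RD no tumour, and Mup1 at 0.768, 0.507 and 0.131 CPM against 0.481, 54.5 and 57.5 CPM. RD no tumour 1 was thus at the level of the WD tumour livers for both. Without it, edgeR called Mup7 (adjusted p = 0.021), Mup1 (adjusted p = 0.031), Gm3839 (adjusted p = 0.046) and the uncharacterised E030018B13Rik (adjusted p = 0.021) as lower in WD tumour hepatocytes. Urinary protein genes are near-identical copies, so reads can be assigned among them with uncertainty. E030018B13Rik was at 11.2, 10.5 and 12.9 CPM against 57.3, 101 and 101 CPM and had the smallest p of all hepatocyte genes in the main test (1.53e-05; adjusted p = 0.244).

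Of 16 female-biased genes, 8 were tested and all 8 lay above 0, with a median log2 difference of 1.74; the other 8 had too few UMIs in the 6 libraries. The filter passes a gene that is present in 1 group alone, so the direction of those that passed is a description only. Cyp2b13, a female cytochrome P450, was at 5.38, 1.77 and 4.72 CPM against 0.206, 0 and 0.105 CPM (adjusted p = 1.2e-05 by DESeq2). Cyp2b9, its close copy, was at 89.0, 11.1 and 176 CPM against 0.0687, 6.25 and 8.94 CPM. Both had separate groups (6.51% of all genes tested were separate at higher levels), and the split of reads between these copies is uncertain. Sult3a1, a sulfotransferase, was separate at 2.74, 3.93 and 6.75 CPM against 2.06, 0.202 and 1.84 CPM, and Fmo2, a flavin monooxygenase, overlapped at 179, 48.2 and 212 CPM against 33.4, 84.9 and 54.0 CPM. The median log2 difference stayed between -1.62 and -0.95 for the male-biased list and between 1.17 and 2.64 for the female-biased list in all alternatives run.

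Fatty acid synthesis genes were mostly higher and sterol synthesis genes mostly lower in WD tumour hepatocytes, with list medians of opposite sign. Of 18 fatty acid synthesis genes, 15 lay above 0 (median 0.52), 3 were separate at higher levels (6.51% of all genes tested) and DESeq2 called 2 (1.07% of all genes). Of 18 sterol synthesis genes, 16 lay below 0 (median -0.27), 2 were separate at lower levels (6.55% of all genes tested) and 1 at a higher level, and DESeq2 called none. Promoter sequences of 4 members are printed here to show which letters genes of these lists hold near their start, in RefSeq annotation of the build GRCm38.p6: Pnpla3 (chr15:84167566-84167865, plus strand) from the fatty acid list, and Hmgcs1 (chr13:119690101-119690400, plus), Cyp51 (chr5:4104648-4104947, minus) and Hsd17b7 (chr1:169969156-169969455, minus) from the sterol list. Each runs 5′ to 3′ from 250 bases before to 50 bases after the start, and capitals mark the CCAAT box (CCAAT, or ATTGG on the other strand) and the sterol regulatory element TCACNCCAC, searched on both strands.
Pnpla3: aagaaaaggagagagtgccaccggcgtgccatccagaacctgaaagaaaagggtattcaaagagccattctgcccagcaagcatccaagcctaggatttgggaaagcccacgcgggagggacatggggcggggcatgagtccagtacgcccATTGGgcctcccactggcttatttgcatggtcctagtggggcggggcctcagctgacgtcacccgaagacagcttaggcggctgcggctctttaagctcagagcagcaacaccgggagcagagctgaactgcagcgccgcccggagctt
Hmgcs1: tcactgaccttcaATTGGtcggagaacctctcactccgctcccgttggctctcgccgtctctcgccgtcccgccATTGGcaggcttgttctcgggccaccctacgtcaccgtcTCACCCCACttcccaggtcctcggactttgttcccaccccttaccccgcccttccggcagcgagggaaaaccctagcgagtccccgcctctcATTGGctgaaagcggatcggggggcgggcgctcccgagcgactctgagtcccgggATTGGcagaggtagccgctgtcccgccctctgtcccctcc
Cyp51: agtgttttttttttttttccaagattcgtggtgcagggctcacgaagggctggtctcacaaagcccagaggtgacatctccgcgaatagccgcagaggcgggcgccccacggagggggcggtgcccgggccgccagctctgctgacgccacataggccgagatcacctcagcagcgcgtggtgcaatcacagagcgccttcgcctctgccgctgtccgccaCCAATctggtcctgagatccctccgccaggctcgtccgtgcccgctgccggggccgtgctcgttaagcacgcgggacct
Hsd17b7: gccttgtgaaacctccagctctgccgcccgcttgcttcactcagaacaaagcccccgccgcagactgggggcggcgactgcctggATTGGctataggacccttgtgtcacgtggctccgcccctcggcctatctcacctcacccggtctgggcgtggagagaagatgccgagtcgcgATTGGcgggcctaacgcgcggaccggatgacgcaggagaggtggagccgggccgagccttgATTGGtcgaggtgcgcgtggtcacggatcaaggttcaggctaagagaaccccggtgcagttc
A promoter with the CCAAT letters was found for all 13 sterol synthesis genes that the table holds (of 18). The same held for 12 of 15 fatty acid synthesis genes, and 37.4% of the 32851 promoters of the table had the letters. The letters TCACNCCAC were found for 1 of 13 and 1 of 15 genes, and in 1.24% of all promoters. The list counts are of genes, with any promoter of a gene counted. The percentages are of single promoters (of 27025 genes), so the units differ. Among those printed, Hmgcs1 holds TCACNCCAC once. A match of letters is a description and does not show that a factor was bound.

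Srebf1, the SREBP of the fatty acid arm, was at 78.0, 30.5 and 61.4 CPM in WD tumour hepatocytes and at 14.7, 18.5 and 12.7 CPM in RD no tumour hepatocytes (log2 difference 1.89, SE 0.36; adjusted p = 0.0014 by DESeq2). Pnpla3, a lipid droplet lipase under its control, was at 3.51, 1.52 and 3.02 CPM against 0.618, 0.202 and 0.210 CPM (2.96, SE 0.60; adjusted p = 0.0053 by DESeq2). WD tumour 2 was the lowest of its group for both, yet above every control, and Srebf1 differed by 1.03 within the pair that stood apart and by 2.12 among the other 4 libraries. Elovl6, which elongates palmitate, was separate at 152, 80.0 and 73.3 CPM against 59.9, 63.8 and 45.4 CPM. Scd1, the desaturase of the pathway, overlapped because WD tumour 2 had 178 CPM, below all controls (211, 264 and 212 CPM), while WD tumour 1 and 3 had 1269 and 536 CPM. Fasn, fatty acid synthase, overlapped too, at 48.1, 17.6 and 38.5 CPM against 20.8, 33.0 and 24.7 CPM. Within the pair that stood apart Scd1 differed by -0.24, and among the other 4 libraries by 1.92 on the log2 scale.

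In the sterol arm, Cyp51, lanosterol demethylase, was at 26.0, 45.6 and 47.6 CPM against 74.1, 83.6 and 50.3 CPM (log2 difference -0.80, SE 0.30), and Hsd17b7 was at 19.4, 16.6 and 23.1 CPM against 28.4, 33.0 and 26.9 CPM (-0.58, SE 0.19). Both were separate. Sc5d, a late sterol desaturase, went the other way at 125, 124 and 143 CPM against 118, 99.4 and 86.2 CPM. Hmgcs1, which commits acetyl-CoA to the pathway, overlapped at 35.3, 49.9 and 85.8 CPM against 74.9, 60.2 and 72.6 CPM, as did Sqle, squalene epoxidase, at 8.01, 49.6 and 34.6 CPM against 89.8, 50.5 and 31.2 CPM. The sterol list's median level relative to the RD no tumour mean was -0.61, -0.47 and 0.11 in WD tumour 1, 2 and 3 and -1.42 and -1.21 in the RD tumour livers, on the log2 scale.

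The lipid droplet list was evenly divided, with 8 of 16 genes on each side of 0, but 3 members were separate at higher levels (6.51% of all genes tested were) and DESeq2 called 2 (1.07% of all genes). Mogat1, which makes diacylglycerol for storage, was at 11.2, 8.36 and 3.41 CPM against 1.37, 1.48 and 2.37 CPM (log2 difference 2.12, SE 0.51; adjusted p = 0.018 by DESeq2). Cd36, the fatty acid importer, was at 186, 112 and 101 CPM against 66.5, 44.0 and 65.3 CPM (1.18, SE 0.29; adjusted p = 0.048 by DESeq2). Plin3 was separate at a smaller difference of 0.43, whereas Plin2, the main coat protein of hepatocyte lipid droplets, overlapped and had a log2 difference of -0.50.

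Genes of hepatocytes near the central vein lay mostly above 0 and those of hepatocytes near the portal vein mostly below, the latter largely through WD tumour 2. Of 14 pericentral genes 10 were above 0 (median 0.53), and those separate at higher levels included Rhbg, an ammonium transporter, and Axin2, a feedback target of Wnt signalling (6.51% of all genes tested were separate in that direction). Rhbg differed by 1.04, and by 0.60 in barcodes of at most 5% mitochondrial UMIs. Axin2 was at 12.1, 15.1 and 13.1 CPM against 7.49, 10.8 and 8.89 CPM. Of 14 periportal genes 11 were below 0 (median -0.33), and Sdsl and the urea cycle enzyme Asl were separate at lower levels (6.55% of all genes tested were). The periportal medians relative to the control mean were -0.12, -1.33 and -0.14 in WD tumour against -0.29, 0.29 and 0.02 in RD no tumour, and overlapped. Asl differed by -2.10 within the pair that stood apart and by -0.54 among the other 4 libraries, and Sdsl by -2.50 and -0.83. Of the 3 periportal genes above 0, only Apoa4, a lipoprotein component, was separate, at 420, 975 and 403 CPM against 148, 72.4 and 321 CPM. No member of either list passed 0.05 by DESeq2.

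Among fetal and tumour-associated genes, H19, an imprinted RNA of the fetal liver, gave 11, 13 and 28 UMIs in WD tumour hepatocytes and 0, 0 and 1 in RD no tumour hepatocytes. The ratio per UMI sequenced was 78.1, with a 95% exact interval of 13.4 to 3142 that covers counting error only, and the adjusted p by DESeq2 was 0.0023. The 2 RD tumour livers, which also carried HCC, gave 1 and 4 UMIs. Sox4, a transcription factor of progenitor cells, was at 4.17, 2.66 and 3.67 CPM against 1.37, 0.404 and 0.316 CPM (log2 difference 2.33, SE 0.61; adjusted p = 0.035 by DESeq2), and Epcam, also a bile duct marker, was separate at 2.19, 2.03 and 1.25 CPM against 0.755, 0.471 and 0.316 CPM. Cholangiocyte marker RNA in the hepatocyte sums ran from 108 to 137 CPM in WD tumour and from 51.0 to 110 CPM in RD no tumour, and its part in Sox4 and Epcam was not tested. In barcodes of at most 5% mitochondrial UMIs Sox4 differed by 1.32, and H19 and Epcam had too few UMIs to be tested. Over all genes tested, 6.51% were separate at higher levels. Afp, the serum marker of HCC, overlapped at 7.46, 28.4 and 9.05 CPM against 27.7, 9.42 and 32.5 CPM. Of the 20 listed genes 16 were tested and 12 lay above 0, with a median of 0.67 that turned to -0.34 without WD tumour 2. That count holds H19, which passed the low-count filter through the WD tumour group alone, so its direction is a description only.

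Acute phase genes differed most among the controls. Saa1, serum amyloid A, stood at 130, 1143 and 79.4 CPM in WD tumour hepatocytes and at 11040, 298 and 1059 CPM in RD no tumour hepatocytes, with its near-identical copy Saa2 at 61.4, 576 and 44.6 CPM against 10720, 99.7 and 590 CPM. RD no tumour 1 was the highest library for both, and WD tumour 2 the highest of its group. Of 16 genes 15 lay below 0 (median -0.87), none was separate, and the median was 0.28 without RD no tumour 1. Interferon-stimulated genes lay above 0 in 23 of 25 cases (median 0.59), and Ifit2, which blocks translation of viral RNA, Irgm1 and the RNA sensor Ifih1 were separate at higher levels (6.51% of all genes tested were); DESeq2 called none. RD no tumour 1 had the highest list median of the 6 libraries, at 0.65 relative to the control mean against 0.32, 0.55 and 0.21 in WD tumour. Irgm1 differed by 0.59, and by 0.28 in barcodes of at most 5% mitochondrial UMIs. Ifit2 was at 4.61, 5.95 and 3.15 CPM against 2.27, 0.605 and 0.684 CPM.

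Of the other hepatocyte lists, bile acid genes lay below 0 in 11 of 17 cases (median -0.17), fatty acid oxidation genes in 13 of 18 (median -0.16) and genes of the unfolded protein and integrated stress response in 12 of 17 tested (median -0.13). Cell cycle genes lay above 0 in 15 of 20 tested (median 0.17), circadian clock genes in 12 of 19 (median 0.24), sterol uptake and sensing genes in 8 of 12 tested (median 0.13) and oxidative stress genes in 10 of 17 tested (median 0.10). Among the oxidative stress genes, the metallothioneins Mt1 and Mt2, which bind zinc and copper, were separate at lower levels (6.55% of all genes tested were). Mt1 was at 1048, 1580 and 799 CPM against 1949, 2219 and 1653 CPM. Each of these 7 medians changed sign in at least 1 alternative.

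**Figure D2:**
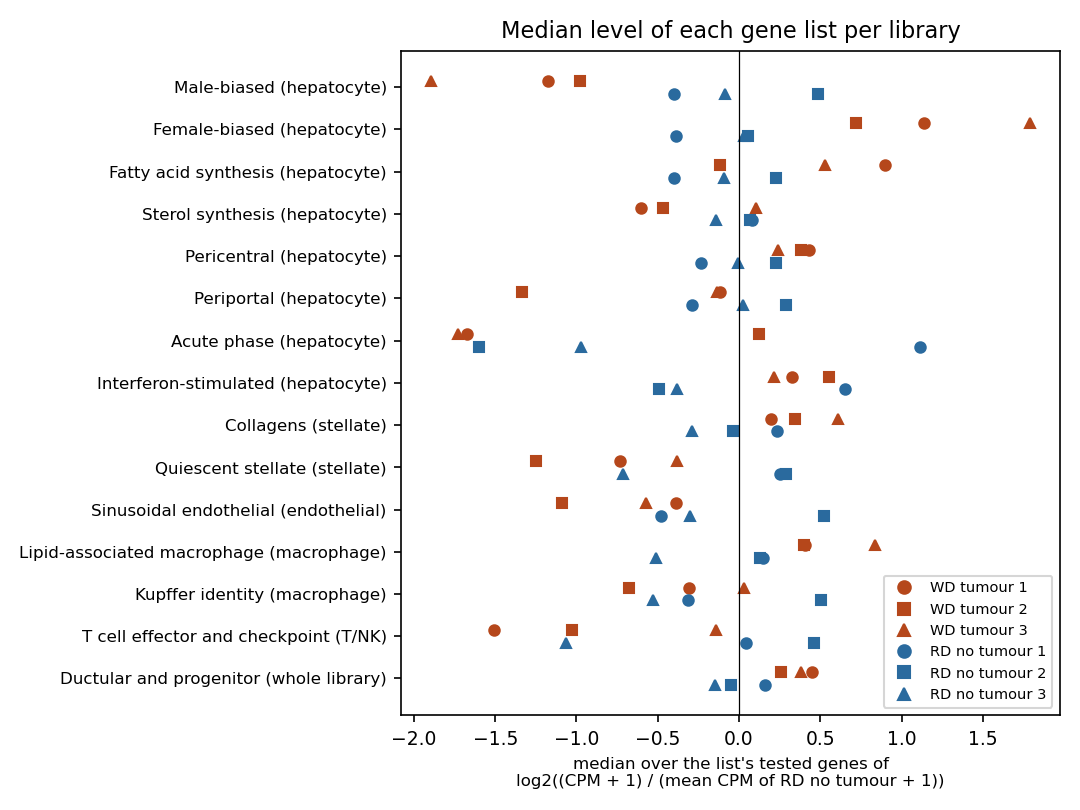
Median over each list's tested genes of the log2 level relative to the RD no tumour mean (after adding 1 CPM), 1 point per library, with the class in brackets. The male-biased medians of WD tumour lie between -1.89 and -0.98 and those of RD no tumour between -0.40 and 0.48, whereas the acute phase medians overlap, with RD no tumour 1 at 1.11. The medians of the fatty acid synthesis, sterol, Kupffer, sinusoidal and T cell lists also overlap between the groups.

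The share of barcodes that reached the cholangiocyte class was larger in the WD tumour livers. That class was mixed, so its share is not that of bile duct cells alone. For WD tumour 2, RD no tumour 1 and RD no tumour 2, its sums held more stellate than cholangiocyte marker RNA (levels below). The part of this mixture in the share was not tested. Cholangiocyte-marked barcodes were 11.2, 11.0 and 10.6% of the kept barcodes in WD tumour and 6.70, 4.50 and 4.72% in RD no tumour (10.9 ± 0.316% against 5.31 ± 1.21%, SD), a difference of 5.60 percentage points. The groups were separate, and the exact two-sided permutation test gave p = 0.1, the smallest that 3 against 3 allows (0.6 after Benjamini-Hochberg adjustment over 6 classes). The groups also stayed separate with barcodes of 1 class only (5.76, 3.90 and 5.05% against 1.71, 1.77 and 2.2%) and after each barcode was thinned to 1000 UMIs (6.08, 4.70 and 6.06% of 4241, 4831 and 5657 barcodes deep enough, against 3.21, 1.67 and 0.969% of 8376, 5631 and 7533). With barcodes of at most 5% mitochondrial UMIs the shares were 20.7, 16.1 and 15.8% against 7.01, 5.14 and 5.34%. The other 5 classes overlapped: hepatocyte-marked barcodes were 61.6 ± 7.43% and 58.5 ± 9.09%, endothelial 17.3 ± 4.31% and 19.3 ± 1.07%, stellate 9.02 ± 0.799% and 10.2 ± 3.00%, macrophage 12.5 ± 10.0% and 15.2 ± 9.15%, and T/NK 3.34 ± 1.02% and 3.20 ± 1.41%.

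**Figure D3:**
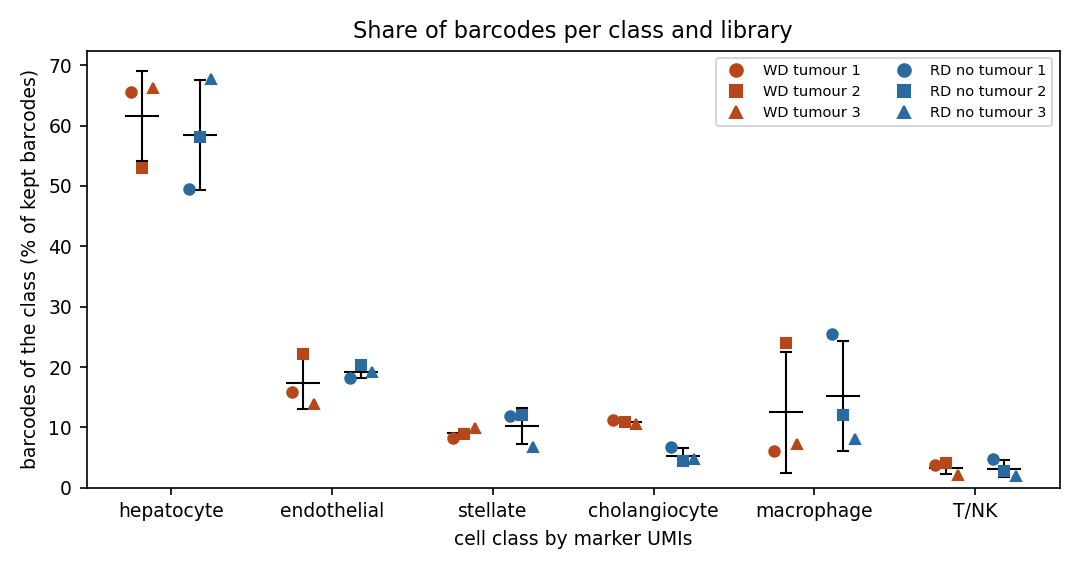
Share of kept barcodes that reached each class (percent, axis from 0), 1 point per library, with the mean as a long bar and 1 SD as whiskers. The cholangiocyte class alone is separate, at 10.6 to 11.2% in WD tumour and 4.50 to 6.70% in RD no tumour. That class also held stellate marker RNA. The macrophage class shows WD tumour 2 and RD no tumour 1 near 25%.

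The whole-library sums held the same direction for bile duct genes. Of 20 ductular and progenitor genes 18 were tested, 15 lay above 0 (median 0.44, against -0.008 over all genes), 6 were separate at higher levels (5.94% of all genes tested) and DESeq2 called 5 (0.716% of all genes). Sctr, the secretin receptor of large bile ducts, was at 2.17, 1.39 and 2.08 CPM against 0.623, 0.450 and 0.367 CPM (log2 difference 1.95, SE 0.37; adjusted p = 0.0089 by DESeq2). Ehf, an epithelial transcription factor, was at 4.0, 2.15 and 2.40 CPM against 0.853, 0.811 and 0.634 CPM, and the junction proteins Cldn7 (1.58, and 1.03 in barcodes of at most 5% mitochondrial UMIs) and Cdh1, the Hippo pathway target Ankrd1 and the Notch ligand Jag1 were also separate. Among the class-defining genes, the cystic kidney disease protein Bicc1 was at 135, 131 and 136 CPM against 87.6, 43.7 and 31.3 CPM. The chloride channel Cftr, also class-defining, was at 4.68, 0.972 and 3.40 CPM against 0.558, 0.586 and 0.801 CPM. UMIs of Bicc1 and Cftr also set which barcodes count as cholangiocyte-marked, so their direction adds nothing independent to the barcode share.

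Within the cholangiocyte-marked barcodes, the same ductular list was near the middle of all genes, with 10 of 17 tested genes above 0 and a median of 0.03; Onecut1 alone was separate, at 80.7, 72.2 and 81.1 CPM against 51.6, 59.2 and 44.1 CPM (4.33% of all genes tested were separate in this direction). This class was mixed: stellate marker RNA in it stood at 1212, 1588 and 1245 CPM in WD tumour and at 3383, 2486 and 522 CPM in RD no tumour, beside cholangiocyte marker RNA of 1490, 1190 and 1705 CPM against 1567, 1640 and 626 CPM. Kcnip4, a potassium channel-interacting protein, was at 139, 168 and 152 CPM against 68.0, 45.1 and 62.9 CPM (log2 difference 1.38, SE 0.21). Its adjusted p was 0.9999 by edgeR and 0.00079 by DESeq2, and the difference was 2.04 in barcodes of 1 class only. Of the other leading genes, Olfm2 differed by 2.08 and Sytl5 by 1.5 at higher levels, and the tetraspanin Tspan7 by -0.88, Tmtc1 by -1.08 and the connexin Gja4 by -1.94 at lower levels, where 3.97% of all genes tested were separate. The other leading genes differed by 0.80 to 2.10 (Cfap44, Rasal1, Ltbp2, Lama4, Rasgrp3, Slit2 and Cdh6) and by -0.73 to -1.54 (Mecom, Ly86, Cd55, Cd163, Adam23, Clec4g and Plxnc1). In barcodes of 1 class only the differences were -0.46 for Tspan7, -1.77 for Tmtc1, -0.16 for Adam23, -0.12 for Plxnc1 and 0.48 for Clec4g.

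Collagen genes lay mostly above 0 in the whole library and in the stellate-marked barcodes, and genes of the resting stellate cell lay below 0 in the stellate-marked barcodes. In the whole library 15 of 17 collagens lay above 0 (median 0.71), 7 were separate at higher levels (5.94% of all genes tested were) and DESeq2 called 3 (0.716% of all genes). Col6a3, a beaded-filament collagen, was at 14.3, 10.7 and 14.3 CPM against 6.50, 4.73 and 3.77 CPM (log2 difference 1.39, SE 0.28). Its adjusted p was 0.599 by edgeR and 0.0040 by DESeq2. Col5a1, which nucleates collagen fibrils, was at 12.2, 12.5 and 13.9 CPM against 7.22, 7.07 and 5.78 CPM (0.95, SE 0.20; adjusted p = 0.0051 by DESeq2), and the difference was 0.59 in barcodes of at most 5% mitochondrial UMIs. Col1a1, the main fibril collagen of scar, was at 3.54, 7.14 and 4.12 CPM against 1.84, 0.721 and 0.401 CPM (2.31, SE 0.63; adjusted p = 0.032 by DESeq2). RD no tumour 1 was the highest control for each of these. Fibroblast marker RNA moved in the same direction, at 243, 238 and 237 CPM against 205, 119 and 94.8 CPM, and stellate marker RNA overlapped at 541, 533 and 558 CPM against 684, 480 and 341 CPM; their part in the collagen differences was not tested.

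Over the whole library, the 10 leading genes at higher levels also held the alpha 8 integrin chain Itga8, at 48.5, 23.5 and 42.1 CPM against 12.5, 12.6 and 11.2 CPM, and the beta 8 chain Itgb8, at 8.39, 5.32 and 8.20 CPM against 2.33, 1.62 and 1.80 CPM. The RNA-binding protein Igf2bp2 was at 9.31, 14.0 and 13.3 CPM against 4.20, 2.97 and 4.61 CPM. Thsd4, Galnt17, Greb1l, Lpl, Kifc3, Sytl5 and Unc5b completed that set, at differences of 0.84 to 2.54. At lower levels, Enho, which encodes the secreted peptide adropin, was at 2.23, 4.27 and 3.24 CPM against 12.9, 9.82 and 9.52 CPM, and Acmsd, an enzyme of tryptophan breakdown, at 67.7, 83.0 and 68.4 CPM against 126, 125 and 117 CPM. Gadd45g, Nnmt, AA986860, Cadm4, Slc3a1, Slco1a1, Mastl and Hhip were the other 8, at differences of -0.89 to -1.86, and 4.83% of all genes tested were separate at lower levels.

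In stellate-marked barcodes 14 of 17 collagens lay above 0 (median 0.46, against 0.011 over all genes), and Col6a3, Col15a1 and Col1a1 were separate at higher levels (6.13% of all genes tested). Col1a1 was at 10.6, 12.9 and 13.2 CPM against 8.13, 4.02 and 1.68 CPM. Col15a1, a basement membrane collagen, was at 17.1, 14.6 and 14.7 CPM against 2.71, 0 and 7.05 CPM. Col6a3 differed by 0.017 within the pair that stood apart, by 1.14 among the other 4 libraries and by 0.58 in barcodes of 1 class only. Within that pair and among the other 4, Col1a1 differed by 0.63 and 1.89, and Col15a1 by 2.23 and 2.03. The crosslinking enzyme Loxl1, at 12.2, 11.7 and 15.3 CPM against 7.58, 2.51 and 1.68 CPM, and Ltbp2, which binds microfibrils, at 5.32, 4.86 and 8.27 CPM against 1.90, 0.503 and 1.01 CPM, were separate as well. None of these passed 0.05 by DESeq2 in this class. The list of other matrix genes had 14 of 18 tested above 0 (median 0.37), with library medians that overlapped (-0.22, 0.27 and 0.51 in WD tumour against 0.19, 0.21 and -0.58). The stellate activation list had 12 of 16 tested above 0 (median 0.15), with 2 genes separate at higher levels and 1 at a lower level. Over all genes tested, 6.13% and 5.36% were separate in those directions.

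Hhip, a decoy receptor that restrains Hedgehog signalling, had the smallest p of the named stellate genes. It was at 14.4, 18.2 and 11.9 CPM in WD tumour and at 54.7, 72.9 and 57.7 CPM in RD no tumour, and lies at chr8:79965851-80058006 on the minus strand. The log2 difference was -2.04 (SE 0.23), with an adjusted p of 0.779 by edgeR and 2.7e-07 by DESeq2. The Hhip difference was -1.56 within the pair that stood apart, -2.26 among the other 4 libraries and -2.0 in barcodes of 1 class only. The RD tumour livers had 5.99 and 17.0 CPM. Ednrb, the endothelin B receptor, was at 44.5, 44.0 and 45.9 CPM against 108, 188 and 85.9 CPM (log2 difference -1.50; adjusted p = 0.033 by DESeq2), and Adamts15, Gem, Ano1 and Plscr5 differed by -1.16 to -1.65. Plvap, Clec4g and Fcna, at differences of -1.03 to -1.57 here, are genes of endothelial or Kupffer cells (Clec4g differed by -0.37 in barcodes of 1 class only); endothelial marker RNA in the stellate sums was 1079, 1789 and 882 CPM against 1455, 1123 and 1251 CPM.

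At higher levels in the stellate class, Fbn2, a fibrillin of developing elastic tissue, was at 6.46, 15.6 and 7.35 CPM against 1.08, 0.503 and 0.671 CPM (log2 difference 3.58, SE 0.55; adjusted p = 0.012 by DESeq2), and the RD tumour livers had 1.5 and 0.733 CPM. Gas7, Nkain3, Unc5b, Col4a5, the neurotrophin receptor Ntrk3 and Ephb2 followed at 1.10 to 2.05. In barcodes of 1 class only the difference was 0.62 for Col4a5 and 1.69 for Gas7. Of 13 genes of the resting stellate cell, all 13 lay below 0 (median -0.75) and 1 was separate (5.36% of all genes tested): Bmp10, a ligand made by stellate cells, at 3.8, 5.34 and 8.58 CPM against 19.8, 13.1 and 9.73 CPM (log2 difference -1.26, and -0.59 in barcodes of 1 class only). The list's median relative to the control mean was -0.73, -1.25 and -0.38 in WD tumour and 0.25, 0.29 and -0.71 in RD no tumour, so RD no tumour 3 lay within the range of the WD tumour livers. The markers that define the class were also at 3190, 2729 and 3664 CPM against 5004, 4637 and 3140 CPM, and their part in the list's difference was not tested. Des, desmin, which is outside the list of resting genes, was separate at lower levels, at 11.4, 10.9 and 17.1 CPM against 22.5, 29.6 and 19.1 CPM.

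**Figure D4:**
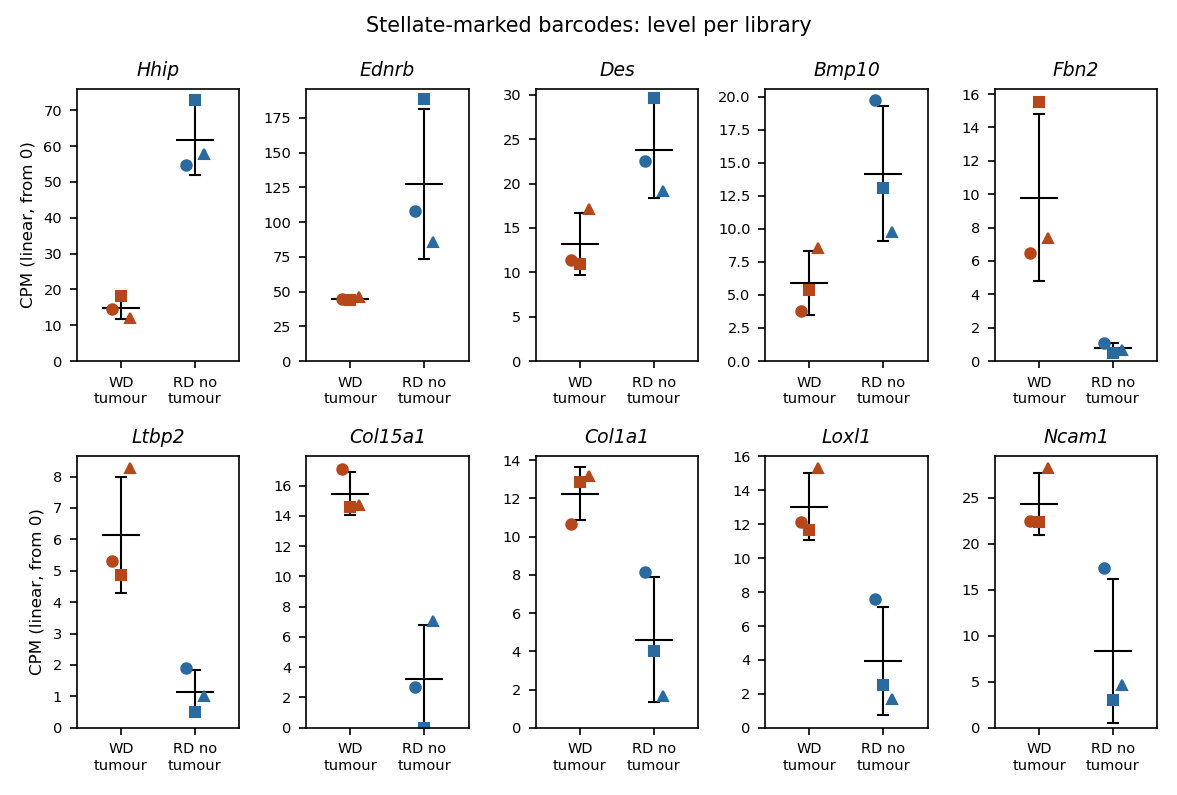
Levels of 10 genes in stellate-marked barcodes (CPM, linear axes from 0), 1 point per library, with the mean as a long bar and 1 SD as whiskers. Hhip sits at 11.9 to 18.2 CPM in WD tumour and at 54.7 to 72.9 CPM in RD no tumour, and Col1a1 at 10.6 to 13.2 CPM against 1.68 to 8.13 CPM.

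In endothelial-marked barcodes, genes of the sinusoid, the fenestrated vessel of the liver, lay mostly below 0, but the libraries overlapped. Of 17 sinusoidal genes 14 lay below 0 (median -0.62, against -0.006 over all genes) and 1 was separate (4.68% of all genes tested): Clec4g, a lectin of sinusoidal endothelium, at 156, 72.8 and 132 CPM against 178, 357 and 211 CPM. DESeq2 called none, and the list's median relative to the control mean was -0.39, -1.09 and -0.57 in WD tumour against -0.48, 0.52 and -0.30 in RD no tumour. Dnase1l3 overlapped at 87.1, 50.2 and 62.4 CPM against 84.4, 173 and 112 CPM. Fam167b, of unknown role, was at 13.9, 9.38 and 8.25 CPM against 27.0, 48.7 and 37.0 CPM (log2 difference -1.84, SE 0.31). Its adjusted p was 0.9999 by edgeR and 0.0030 by DESeq2. Hpse, which cleaves heparan sulfate, and the amino acid transporter Slc7a5 differed by -1.09 and -1.34. At higher levels, Rerg, a Ras-like growth inhibitor, was at 25.4, 21.7 and 24.9 CPM against 12.7, 11.6 and 10.6 CPM (1.05, SE 0.18; adjusted p = 0.035 by DESeq2). Capillarization and angiogenesis genes were divided, with 10 of 15 tested genes above 0, a median of 0.09, and 1 gene separate in each direction (5.6% of all genes tested were separate at higher levels). The laminins Lama2 and Lamb1 and the collagen Col5a2 (0.91, and 0.41 in barcodes of 1 class only) were also at higher levels in this class, where fibroblast marker RNA stood at 204, 147 and 199 CPM against 107, 92.5 and 75.4 CPM; its part was not tested.

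In macrophage-marked barcodes, lipid-associated macrophage genes lay mostly above 0 and Kupffer genes mostly below, and the libraries overlapped for the Kupffer list. Of 20 lipid-associated genes 19 were tested, 16 lay above 0 (median 0.61, against -0.004 over all genes) and 7 were separate at higher levels (5.2% of all genes tested). DESeq2 called 3 (0.165% of all genes), of which 1 was lower. Atp6v0d2, a subunit of the lysosomal proton pump, was at 67.2, 30.4 and 92.8 CPM against 17.4, 12.3 and 17.4 CPM (log2 difference 2.00, SE 0.42). Its adjusted p was 0.9992 by edgeR and 0.025 by DESeq2. Within the pair that stood apart it differed by 0.79, and among the other 4 libraries by 2.39. Lpl was at 81.2, 99.2 and 192 CPM against 20.9, 42.3 and 44.8 CPM, and Trem2, the lipid receptor that names this state, at 16.9, 27.3 and 32.4 CPM against 13.8, 12.3 and 3.34 CPM. Capg, Cd36, St18 and Itgax were separate in the same direction. Lpl and Cd36 were also at higher levels in WD tumour hepatocytes, and the part of hepatocyte RNA in their differences here was not tested. Mmp12, macrophage elastase, was high in WD tumour 1 and 3 (73.6 and 132 CPM) and at 8.39 CPM in WD tumour 2, against 9.22, 7.76 and 3.79 CPM. Gpnmb followed the same order, at 66.0, 9.22 and 146 CPM against 6.40, 14.1 and 4.46 CPM.

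Ctsl, a lysosomal protease in the same list, went the other way at 305, 246 and 291 CPM against 772, 548 and 528 CPM (log2 difference -1.14, SE 0.24; adjusted p = 0.015 by DESeq2). It was also at lower levels in hepatocytes (358, 448 and 366 CPM against 1014, 600 and 626 CPM), and the part of hepatocyte RNA in this class was not tested. In barcodes of 1 class only, Atp6v0d2 differed by 2.71, Lpl by 2.40, Trem2 by 1.71 and Ctsl by -1.07.

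Of 15 Kupffer genes 14 lay below 0 (median -0.44), 2 were separate at lower levels (3.6% of all genes tested) and DESeq2 called none. The list's median relative to the control mean was -0.31, -0.68 and 0.03 in WD tumour against -0.31, 0.51 and -0.53 in RD no tumour. Cd163, the haemoglobin scavenger receptor, was at 18.6, 15.0 and 25.4 CPM against 32.3, 87.8 and 49.9 CPM, and C6, a complement component that is also on the male-biased list, at 316, 210 and 272 CPM against 519, 641 and 323 CPM. Marco, a bacterial scavenger receptor, was at 0.846 and 3.00 CPM in WD tumour 1 and 3 but at 97.5 CPM in WD tumour 2, against 127, 93.1 and 51.5 CPM. The class's own markers summed to 1328, 2168 and 1607 CPM against 2091, 1928 and 1021 CPM and overlapped. Of 8 MHC class II genes 7 were tested and 6 lay above 0 (median 0.88), with none separate. Monocyte and chemokine genes lay below 0 in 11 of 18 cases (median -0.24) and interferon-stimulated genes above 0 in 16 of 25 (median 0.05). The leading genes at higher levels in this class, Lama2, Pcdh7, Lhfp and Zfpm2 (differences of 1.03 to 2.65, each past 0.05 by DESeq2), include a laminin made mainly by mesenchymal cells (Lama2). Fibroblast marker RNA here stood at 219, 158 and 140 CPM against 82.5, 60.5 and 71.5 CPM, and its part was not tested.

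**Figure D5:**
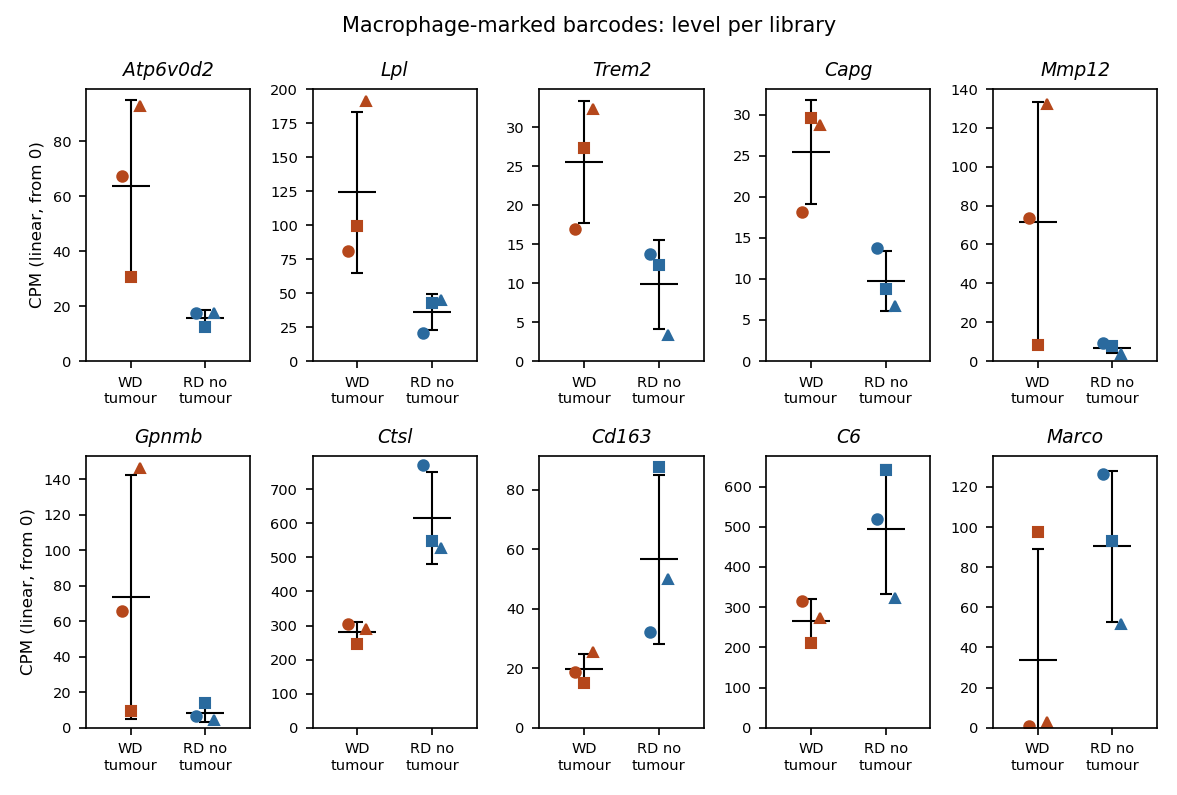
Levels of 10 genes in macrophage-marked barcodes (CPM, linear axes from 0), 1 point per library, with the mean as a long bar and 1 SD as whiskers, cut at 0. Atp6v0d2 sits at 30.4 to 92.8 CPM in WD tumour against 12.3 to 17.4 CPM in RD no tumour, and for Mmp12, Gpnmb and Marco WD tumour 2 lies with the controls.

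In T/NK-marked barcodes, effector and checkpoint genes lay mostly below 0, with library medians that overlapped. Of 24 effector and checkpoint genes 20 were tested, 16 lay below 0 (median -0.71, against -0.008 over all genes) and 2 were separate (4.75% of all genes tested). Prf1, the pore protein of killer cells, was at 4.19, 5.07 and 4.22 CPM against 15.4, 17.2 and 8.19 CPM (log2 difference -1.53, SE 0.41). Cd8b1, a subunit of the CD8 coreceptor, was at 8.90, 5.46 and 11.6 CPM against 19.8, 45.2 and 17.2 CPM. Granzymes overlapped, with Gzmb at 10.5, 8.19 and 39.1 CPM against 44.6, 38.7 and 14.7 CPM. Outside the list, the transcription factors Lef1 (17.3, 16 and 31.7 CPM against 71.0, 123 and 48.3 CPM) and Satb1 (22.0, 23.4 and 21.1 CPM against 71.6, 179 and 39.3 CPM) were separate at lower levels, with log2 differences of -1.90 and -2.07. DESeq2 gave no adjusted p for Prf1 and put none of the other genes of this paragraph under 0.05.

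The T/NK class held the fewest barcodes, 2.04 to 4.77% of each library, and the markers that define it stood at 733, 809 and 1457 CPM against 1592, 2533 and 915 CPM, so RD no tumour 3 lay within the range of the WD tumour livers. Their part in the lower levels of T cell genes was not tested. The list's median was -0.28 over the 13 genes tested in barcodes of 1 class only, and the difference of Satb1 was -2.30 there and that of Lef1 was -1.36. Pcdh17, Hmcn1, Rbms3 and Zfpm2, at higher levels by 1.18 to 1.71 (separate, as were 4.95% of all genes tested in that direction, and each past 0.05 by DESeq2), stood beside fibroblast marker RNA of 200, 159 and 160 CPM against 69.7, 131 and 68.0 CPM, whose part was not tested. Rbms3 differed by 0.75 in barcodes of 1 class only.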

How the data were processed

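The authors deposited, per the file headers, unnormalized counts of UMIs by gene and barcode, as 1 matrix per library, and the submitters' processing notes name Cell Ranger 7.0.0 and the genome build mm10. Whether intronic reads were counted, and how barcodes were called as cells, is not given in the sources used here. The 8 matrices list 32285 genes, of which 32235 IDs matched GENCODE M21, and 38 symbols name more than 1 ID. Counts were kept for barcodes with at least 300 detected genes and summed per library over all of them and over each of 6 marker-defined classes, so that the mouse was the replicate. No cell was clustered, and no doublet caller was run. Groups came from the sample descriptions.

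Each of the 7 sets of sums was tested with edgeR 4.0.16 (quasi-likelihood test, TMM scaling, filterByExpr, default prior, 3 libraries against 3, no covariate) in R 4.3.3, with Benjamini-Hochberg adjustment over all genes tested and a threshold of 0.05. DESeq2 1.42.0 was the main alternative. The others were another scaling, no filter on low counts, other barcode and marker minimums, a mitochondrial limit, barcodes of 1 class, a term for the libraries that stood apart, a replicate block, leaving out each library, and a robust prior that was chosen after seeing the data. The libraries of the term were also picked from their levels in these data. Shares were compared by exact two-sided permutation tests (scipy 1.17.1). The scripts were tested on simulated data.

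The groups compared, the gene lists and the markers were chosen with earlier results of these data known. Named genes were, per set of sums and direction, the 10 of lowest p among those past the threshold, filled with genes of lowest p whose libraries did not overlap and whose higher group averaged at least 5 CPM. Symbols starting mt-, Rpl, Rps or Gm with digits, or ending Rik, were skipped. In the 5 other classes, but not in the whole library, named genes had to reach 2 times the hepatocyte level and not define the class; genes named from a list did not. Up to 6 genes of lowest p were named per list, with others where a description needed them. Mup1, Mup7, Gm3839 and E030018B13Rik fall outside this rule and were chosen after their values were seen. Some genes that the rule would name are not reported here.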

Additional observations from a re-analysis of the deposited data

Results flagged for a closer look

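The RD tumour livers, which entered no comparison, held RNA of other cell types at 3 times or more the highest level among the 6 compared libraries. Neutrophil markers summed to 2954 CPM in RD tumour 1, against 909 CPM in RD no tumour 1 and 31.9 to 216 CPM in the other 5 compared libraries. Pancreatic acinar markers summed to 375 CPM in RD tumour 2, against 4.69 to 10.0 CPM in the compared libraries. RD tumour 1 also held exactly 20000 barcodes.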

How the results depend on the processing

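The count of genes called by edgeR stayed at 0 in 110 of its 116 alternatives. DESeq2 called 141 genes in the whole library, 178 in hepatocytes, 24 in the endothelial class, 32 in the stellate class, 12 in the cholangiocyte class, 25 in the macrophage class and 15 in the T/NK class. A term for WD tumour 2 and RD no tumour 1, picked from these same data, gave 1 call in the whole library, 3 in hepatocytes and 1 in the endothelial class. Leaving out each library in turn gave 0 to 2 calls in the whole library, 0 to 4 in hepatocytes and 0 to 1 in the endothelial class, with every call arising without RD no tumour 1. Of 247 gene results under 4236 alternatives, 4140 kept their direction and side of the threshold and 95 passed it; 1 turned, Clec4g in the cholangiocyte class, at 0.48 with barcodes of 1 class only. The cause of these changes was not tested.

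The difference in the share of cholangiocyte-marked barcodes kept its direction in every alternative run. The others turned: the hepatocyte share from 3.14 percentage points to -3.72 with at least 500 genes, -5.59 with at most 5% mitochondrial UMIs and -3.32 thinned to 1000 UMIs; the endothelial share from -1.94 to 1.27, 2.54 and 0.205 under the same settings; the stellate share from -1.23 to 0.533 and 1.30 under the first 2; and the macrophage share from -2.73 to 1.71 under the mitochondrial limit. Leaving out each library gave -1.32 to 7.76 for hepatocytes, -8.49 to 2.42 for macrophages and -0.438 to 0.927 for T/NK barcodes.

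The replicate numbers did not pair the libraries: same-numbered libraries had correlations of deviations of -0.55, -0.45 and 0.38 in the whole library, and a replicate block gave 0 calls in each set of sums. Depth limits low genes most: genes under about 1 CPM rest on few UMIs per library. With 3 libraries a group, the exact test of a share cannot go below 0.1.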

Other observations

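The hepatocyte genes given here were chosen after their values were seen. Hamp, which encodes the iron hormone hepcidin, stood at 1.39 CPM in WD tumour 2 and at 972 to 2826 CPM in the other 5 compared libraries, beside erythroid marker RNA of 30302 CPM in WD tumour 2 over the whole library. Hamp2, its near-identical copy, stood at 50.1, 0.380 and 72.3 CPM in WD tumour and at 0, 1.28 and 0.947 CPM in RD no tumour. Bmper, a regulator of BMP signalling, stood at 21.7, 52.8 and 14.3 CPM against 517, 122 and 102 CPM. With a term for WD tumour 2 and RD no tumour 1, edgeR called Hamp2 (adjusted p = 0.0065) and Bmper (adjusted p = 0.042) in hepatocytes. The libraries of that term were picked from these same data, so both calls are a description only.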
